A study of Mus musculus with 36 samples.

Results

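The 9 genes described here, Nkx2-1, Foxa1, Foxa2, Foxa3, Hnf4a, Sox2, Sox9, Cebpa and Gata6, encode transcription factors that specify lung and other endodermal lineages. They were chosen by symbol from 49585 gene IDs of a table of raw read counts, and each of the 9 symbols matched 1 ID. RNA had been sequenced from 36 lung tumours of mice, after their EGFP-positive neoplastic cells were sorted. EML4-ALK, an oncogenic fusion of the kinase domain of ALK with the self-associating amino-terminal part of EML4, drove them in the form of variant 1 or of variant 3, which keep different lengths of EML4. A guide against Setd2, the methyltransferase that places the trimethyl mark on lysine 36 of histone H3, was compared with a control guide, sgNeo. The groups were Variant 1 sgSetd2, Variant 1 sgNeo, Variant 3 sgSetd2 and Variant 3 sgNeo, with 9 tumours each, and all 4 shared the EML4-ALK fusion and the EGFP label. Strain, age, the way the fusion was introduced and the time after it were not given in the labels used here. The 9 tumours of a group carried 3 title codes, with 3 tumours per code. What a code stands for is not in the labels. Each code's tumours were therefore summed and taken as 1 replicate (n = 3 per group), and the p-values reflect how codes scatter, which may be partly technical.

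NKX2-1 is the homeodomain factor that marks lung and thyroid epithelium, and it acts with the forkhead pioneer factors FOXA1 and FOXA2 at surfactant genes of alveolar type 2 cells. In mouse lung tumours that lose NKX2-1, FOXA factors and HNF4A, a nuclear receptor of liver, stomach and gut, accompany a switch to gastric-like gene expression. SOX9 marks the distal tips of the branching embryonic lung, SOX2 marks the proximal airway, C/EBP alpha supports alveolar type 2 maturation, and GATA6 is a zinc-finger factor of early endoderm and lung epithelium. A tumour had between 17.9 M and 137.2 M counts, with a median of 40.7 M, and a code's sum lay between 91.5 M and 212.1 M (M, 1000000 counts). Levels are CPM, counts scaled to a library of 1000000, after TMM scaling, and differences are log2 fold changes from edgeR's quasi-likelihood test on the 12 sums, adjusted by Benjamini-Hochberg over 20009 genes with a threshold of 0.05. Setd2 itself stood at 33.6 to 59.8 CPM in the 6 sgSetd2 codes and at 45.2 to 78.5 CPM in the 6 sgNeo codes, and the averaged contrast missed the threshold at an adjusted p of 0.0501. Reads of a gene cut by a guide can still be counted, so this level does not test the edit. By the Y-linked gene Ddx3y, male codes were spread unevenly over the groups, with 1 of 3 in Variant 1 sgSetd2, 0 of 3 in Variant 1 sgNeo, 1 of 3 in Variant 3 sgSetd2 and 2 of 3 in Variant 3 sgNeo. Surfactant and alveolar type 2 genes were abundant in each tumour, with a summed level of 20 genes between 42280 and 265600 CPM. Most markers of other cells were low: 10 of 14 macrophage genes and 10 of 13 lymphocyte genes were at 0 in most tumours. Nkg7, a gene of cytotoxic lymphocytes, was at 0 in 36 of 36. The genes of highest median were Cd68 in the macrophage list (7.69 CPM) and Cd79b in the lymphocyte list (7.77 CPM). Both had reads in each tumour. The summed macrophage level ran from 5.93 to 22.5 CPM in sgSetd2 tumours and from 4.29 to 37.2 CPM in sgNeo tumours. The summed fibroblast level ran from 28.1 to 491.1 CPM in sgSetd2 tumours and from 42.2 to 1101 CPM in sgNeo tumours, with Fn1 the gene of highest median and 4 of 12 genes at 0 in most tumours. All 6 neutrophil markers had a median below 1 CPM, with 0.535 CPM for Cxcr2, which reached 26.4 CPM. Of the 3 tested, Cxcr2 alone passed in the averaged contrast, and it rose (log2 fold change 2.42, SE 0.47, adjusted p = 0.0116). The median log2 fold change of the 3 was 2.52. Over all genes tested, 7.35% passed in the averaged contrast.

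Per kilobase of exon, the level of Nkx2-1 was the highest of the 9, with a mean of 131 CPM per kb over 12 codes. Cebpa followed with 47.6, Foxa2 with 44.7, Sox9 with 27.5, Foxa1 with 22.8, Gata6 with 9.62, Foxa3 with 2.56, Hnf4a with 0.478 and Sox2 with 0.201 CPM per kb. The place of Sox9 differed between the guides. It averaged 4.40 CPM per kb in Variant 1 sgSetd2 and 50.2 CPM per kb in Variant 1 sgNeo, and 6.32 CPM per kb in Variant 3 sgSetd2 and 48.9 CPM per kb in Variant 3 sgNeo. Both sgSetd2 means of Sox9 were below those of Gata6, at 7.96 CPM per kb in Variant 1 sgSetd2 and 8.86 CPM per kb in Variant 3 sgSetd2. Both sgNeo means of Sox9 were above those of Foxa2, at 37.4 CPM per kb in Variant 1 sgNeo and 46.0 CPM per kb in Variant 3 sgNeo. Nkx2-1 exceeded Cebpa in 12 of 12 codes, and the steps between Foxa1 and Gata6, Gata6 and Foxa3, and Foxa3 and Hnf4a each held in 12 of 12 codes. The neighbours Cebpa and Foxa2 kept their order in 8 of 12 codes, so these neighbours did not differ beyond their spread. Sox9 was below Foxa1 in 6 of 6 sgSetd2 codes and above it in 5 of 6 sgNeo codes. The 9 genes split by how much they varied. The coefficient of variation of the CPM over the 12 codes was 13.6% for Nkx2-1, 13.9% for Foxa1, 14.1% for Cebpa, 16.0% for Foxa2 and 17.2% for Gata6. It was 68.3% for Foxa3, 94.8% for Sox9, 164.4% for Hnf4a and 204.3% for Sox2.

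**Figure D1:**
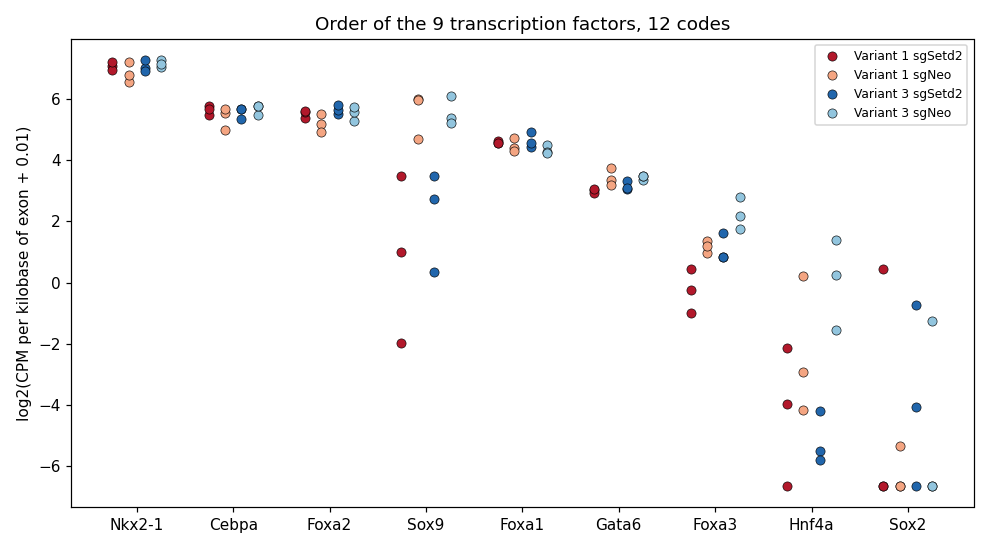
Level of each transcription factor per kilobase of exon in the 12 codes, on a log2 scale with 0.01 added, ordered by mean; each point is 1 code, coloured by group. Nkx2-1 stands highest at a mean of 131 CPM per kb, and the sgSetd2 codes of Sox9 lie below its sgNeo codes.

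Between sgSetd2 and sgNeo, averaged over both variants, all 9 genes had enough reads to be tested, 4 of the 9 passed the threshold and all 4 were lower in sgSetd2: Sox9, Hnf4a, Foxa3 and Gata6. Over all genes tested, 7.35% were called in this contrast, 745 higher and 726 lower. The other 5 members had log2 fold changes with 95% intervals that spanned 0. The median log2 fold change of the 9 was 0.06, against 0.01 over all genes tested. Within Variant 1 and within Variant 3, 0 of 9 members passed, while 1.42% and 1.49% of all genes did, and 3 members had an unadjusted p under 0.05 in each variant, as did 15.9% of all genes in Variant 1 and 15.1% in Variant 3. DESeq2 on the same sums called Foxa3 in Variant 1 and Hnf4a in Variant 3 and returned no adjusted p for Sox9 in any guide contrast.

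**Figure D2:**
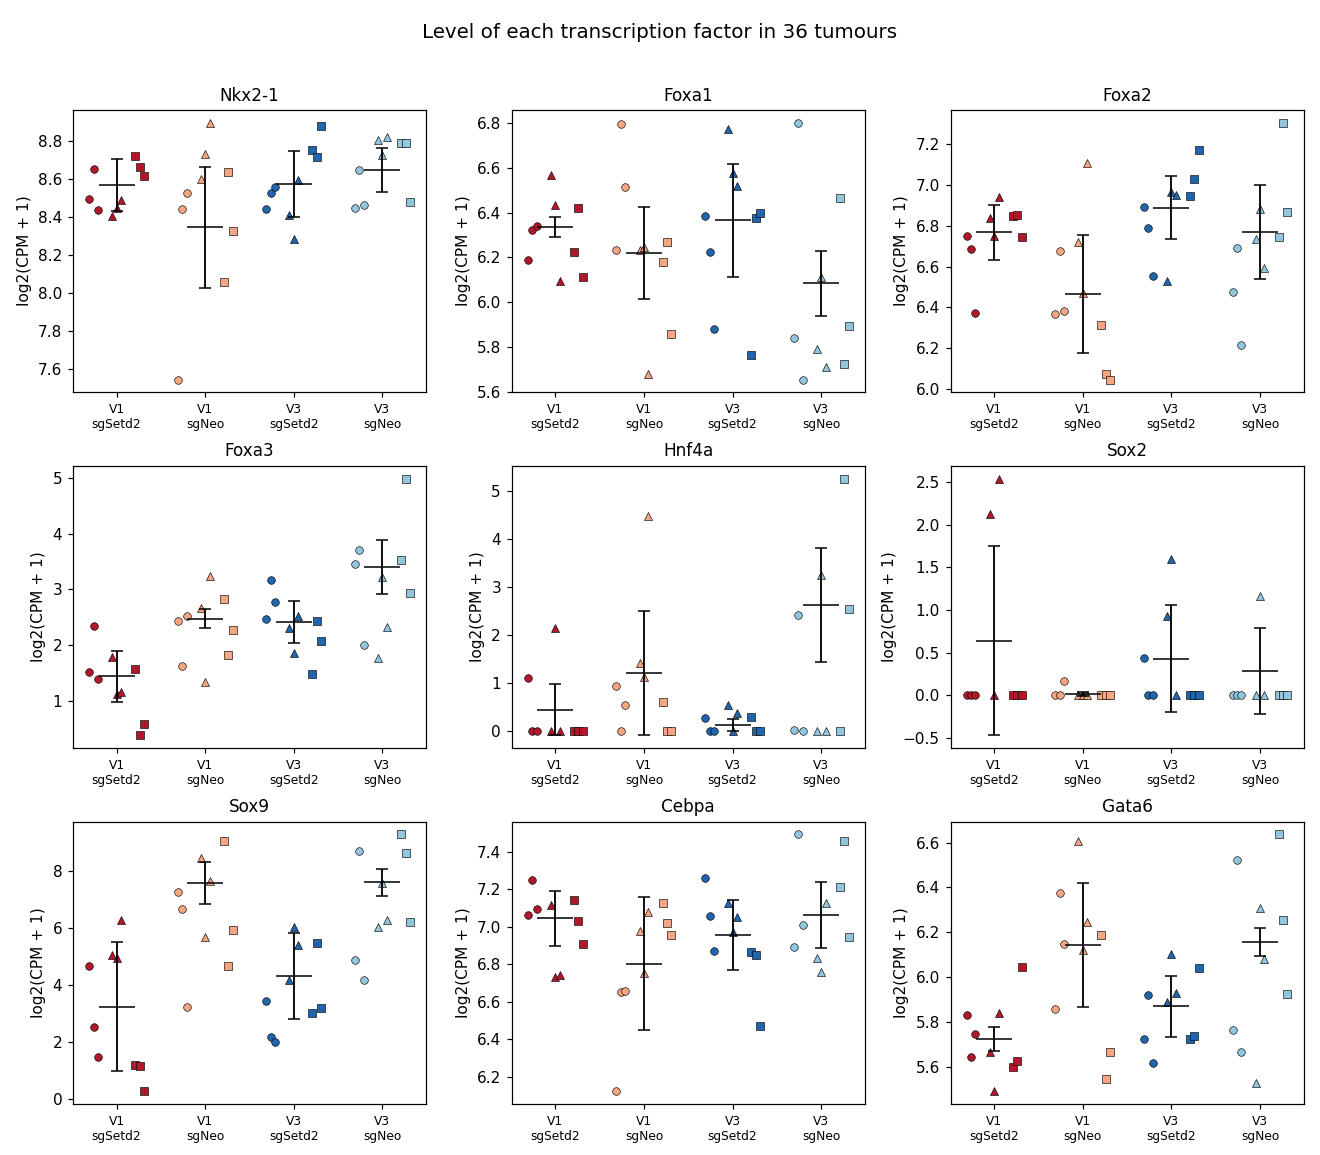
Level of each gene in the 36 tumours as log2(CPM + 1), by group; marker shape separates the 3 codes of a group, the horizontal bar is the mean of the 3 codes and the whisker is 1 SD of the codes. Sox9 sits lower in both sgSetd2 groups, Hnf4a is at 0 in 19 tumours, and the y axes differ between panels and do not all start at 0.

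**Figure D3:**
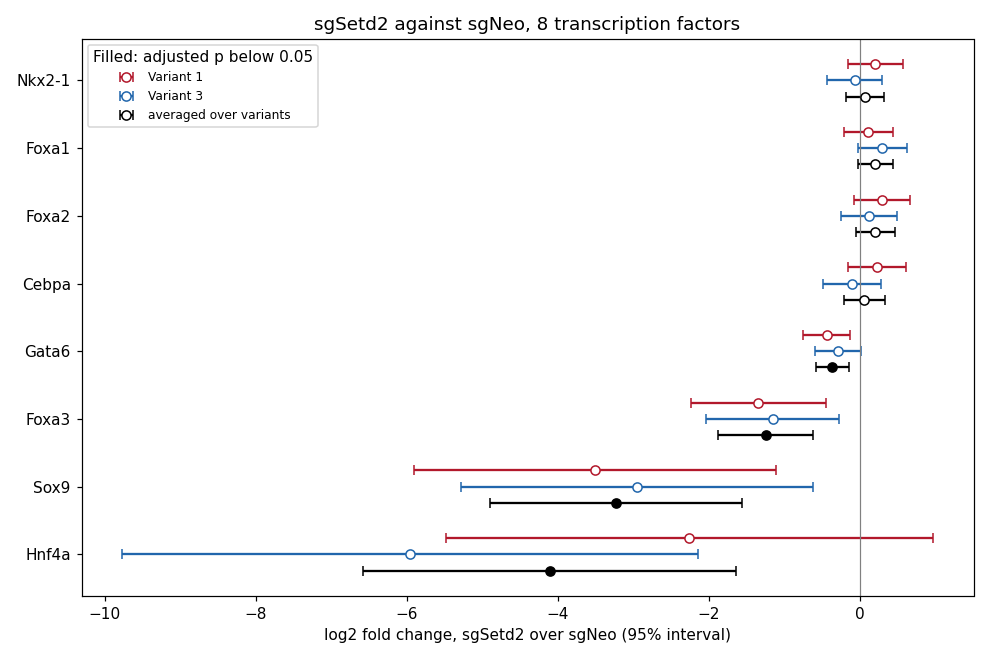
Log2 fold changes of sgSetd2 over sgNeo for 8 transcription factors, with 95% intervals, in Variant 1, in Variant 3 and averaged. Filled points passed the adjusted threshold: Gata6, Foxa3, Sox9 and Hnf4a in the averaged contrast.

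Sox9, the progenitor-tip factor, lies on chromosome 11 (112782224 to 112787760, plus strand, GRCm38 annotation). In Variant 1 it stood at 8.12, 45.5 and 1.02 CPM in the sgSetd2 codes CE475, CE479 and CE483, against 106.0, 259.9 and 256.8 CPM in the sgNeo codes CE467, CE468 and CE472. In Variant 3 it stood at 5.23, 45.9 and 27.3 CPM in the sgSetd2 codes CE450, CE454 and CE456, against 171.7, 153.1 and 282.2 CPM in the sgNeo codes CE428, CE429 and CE433. All 6 sgSetd2 codes were below all 6 sgNeo codes, and the share of all genes so separated was not counted. The averaged log2 fold change was -3.23 (SE 0.76, adjusted p = 0.0276, n = 6 codes each), a level 9.39-fold lower in sgSetd2. It was -3.51 (SE 1.09, adjusted p = 0.138) in Variant 1 and -2.95 (SE 1.06, adjusted p = 0.213) in Variant 3. The difference between these 2 effects was 0.56 (95% interval -2.51 to 3.62, adjusted p = 0.992). In bulk RNA of sorted cells, fewer cells with Sox9 and less Sox9 RNA per cell cannot be told apart. Without filtering on low counts the averaged adjusted p was 0.107, and leaving out 1 code or tumour ended the call in 9 of 48 cases. Those were the codes CE428, CE433, CE450, CE456, CE468, CE472 and CE475, tumour 2 of CE428 and tumour 2 of CE472, with values from -3.28 to -2.95 and adjusted p from 0.0507 to 0.0772.

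Single tumours overlapped where codes did not. Sox9 ran from 0.209 to 77.0 CPM with a median of 4.85 in Variant 1 sgSetd2 tumours, and from 8.44 to 534.4 CPM with a median of 100.5 in Variant 1 sgNeo tumours. It ran from 3.05 to 65.1 CPM with a median of 9.98 in Variant 3 sgSetd2 tumours, and from 17.3 to 630.9 CPM with a median of 77.1 in Variant 3 sgNeo tumours. Of 18 sgSetd2 tumours, 10 were below 10 CPM, against 1 of 18 sgNeo tumours. Of 18 sgNeo tumours, 10 were above the highest sgSetd2 tumour and 8 were not. The scatter between tumours of 1 code was wide, with an SD of 1.53 on the log2(CPM + 1) scale, against 0.20 for Nkx2-1.

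Genes that vary with Sox9 were sought over the 36 tumours as deviations of log2(CPM + 1) from the group mean, among 9827 genes. The 3 of highest Pearson correlation were Mycn (r = 0.873, Spearman 0.867), Sept9 (r = 0.818) and Plat (r = 0.803). For Mycn, a MYC-family gene of the embryonic distal lung, r was 0.877 without the 2 tumours farthest from the median. These correlations describe tumours that share codes and depth, and they carry no test. Mycn averaged 8.26 ± 11 CPM in Variant 1 sgSetd2 and 35.3 ± 18.6 CPM in Variant 1 sgNeo (SD, n = 3 codes each). It averaged 8.80 ± 3.39 CPM in Variant 3 sgSetd2 and 34.6 ± 7.61 CPM in Variant 3 sgNeo. Its averaged log2 fold change of -2.03 (SE 0.59) missed the threshold at an adjusted p of 0.0584. Sept9, a septin, fell in the averaged contrast (log2 fold change -2.67, SE 0.45, adjusted p = 0.00625), and so did Plat, tissue plasminogen activator (-2.65, SE 0.70, adjusted p = 0.0432).

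**Figure D4:**
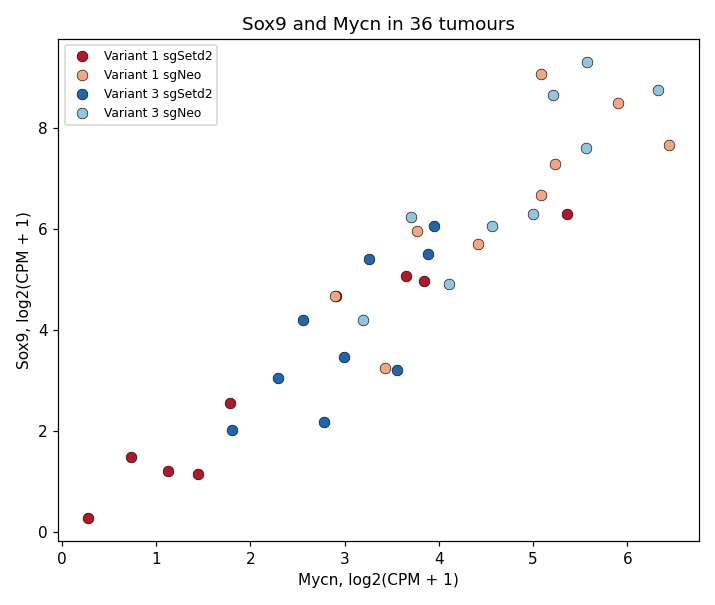
Sox9 against Mycn in the 36 tumours, both as log2(CPM + 1), coloured by group. Tumours high in one tend to be high in the other within each group; the correlation of deviations from the group mean was 0.873.

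Cell cycle genes moved with the guide as well: 6 of 26 were lower in sgSetd2 in the averaged contrast and 0 were higher, with a median log2 fold change of -0.88 against 0.01 over all genes. In Variant 1 alone 5 were lower, with a median of -1.49, and in Variant 3 alone 0 were lower, with a median of -0.27. Over all genes tested, 7.35% were called in the averaged contrast, 1.42% in Variant 1 and 1.49% in Variant 3. Sox9 itself had -3.51 in Variant 1 and -2.95 in Variant 3. The 4 of smallest p were Mcm7, Ccna2, Aurkb and Cdk1, with log2 fold changes of -0.64, -1.28, -1.58 and -1.35 and adjusted p-values of 0.00774, 0.0159, 0.0217 and 0.0321. For Ccna2 the value was -2.40 in Variant 1 and -0.16 in Variant 3, and the difference between these effects was 2.24 (SE 0.53, adjusted p = 0.548). The 5 sgNeo tumours with Sox9 above 350 CPM all had a high mean of the cell cycle list, from 4.74 to 5.62 on the log2(CPM + 1) scale. An sgNeo tumour below that line, tumour 1 of CE467, had a list mean of 5.39 and 155.1 CPM of Sox9. Tumour 1 of CE450, the sgSetd2 tumour highest in that list, had a mean of 4.94 and 9.98 CPM of Sox9. Over 36 tumours the deviations of Sox9 and of the list from their group means had r = 0.533 (Spearman 0.502). With the list as a covariate the Sox9 value was -3.80 and its adjusted p was 0.567, in a fit that called 14 genes in all. The part of proliferation in the Sox9 difference was not tested further.

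Gata6, the zinc-finger factor, lies on chromosome 18 (11052064 to 11085635, plus strand) and made the smallest of the 4 called changes. It averaged 51.8 ± 1.94 CPM in Variant 1 sgSetd2 and 70.5 ± 14.2 CPM in Variant 1 sgNeo, and 57.7 ± 5.66 CPM in Variant 3 sgSetd2 and 70.3 ± 3.12 CPM in Variant 3 sgNeo (SD, n = 3 codes each). Within each variant the codes of the guides did not overlap, while over both variants together they did. The share of all genes without such overlap was not counted. The averaged log2 fold change was -0.37 (SE 0.10, adjusted p = 0.0465), with -0.44 (SE 0.14, adjusted p = 0.142) in Variant 1 and -0.29 (SE 0.14, adjusted p = 0.364) in Variant 3. Of 18 sgNeo tumours, 10 were above 67.8 CPM, the highest of the sgSetd2 tumours. The genes most like Gata6 over tumours were the ribosomal protein genes Rpl22l1 (r = 0.750), Rpl10 (r = 0.722) and Rpl7a (r = 0.717). These 3 fell too in the averaged contrast, by 0.38, 0.31 and 0.42 on the log2 scale (adjusted p = 0.0464, 0.0344 and 0.0352). The call for Gata6 was lost in 28 of 48 fits that left out 1 code or tumour, with values between -0.42 and -0.28 and an adjusted p up to 0.142, without tumour 2 of CE428. Of 11 other settings 4 lost it, among them the sex of the code as a covariate (adjusted p = 0.0683) and the cell cycle list as a covariate (adjusted p = 0.341). The opposite-strand gene 1010001N08Rik overlaps its start and stood at 0.826 to 9.55 CPM; the library kit does not mark strand, so shared reads cannot be told apart.

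Foxa3, the third forkhead factor of the family and one known from liver and gut, lies on chromosome 7 (19013284 to 19023538, minus strand). It averaged 1.80 ± 0.87 CPM in Variant 1 sgSetd2 and 4.59 ± 0.64 CPM in Variant 1 sgNeo, and 4.47 ± 1.52 CPM in Variant 3 sgSetd2 and 9.97 ± 3.66 CPM in Variant 3 sgNeo (SD, n = 3 codes each). Within each variant the codes of the guides did not overlap, while over both variants together they did. Averaged over variants the log2 difference was -1.25 (SE 0.29, adjusted p = 0.0244). It was -1.35 (SE 0.41, adjusted p = 0.132) in Variant 1 and -1.16 (SE 0.40, adjusted p = 0.198) in Variant 3. Foxa3 was also the 1 member with an unadjusted p under 0.05 between variants in each guide. Of all genes tested, 9.7% had such a p in sgSetd2 and 10.4% in sgNeo. The log2 fold changes of Foxa3 in Variant 3 over Variant 1 were 1.31 (SE 0.41, adjusted p = 0.306) in sgSetd2 and 1.12 (SE 0.40, adjusted p = 0.403) in sgNeo. Neither passed. The codes of the variants did not overlap in either guide, and the share of all genes without such overlap was not counted. The mean cell cycle level moved with Foxa3 among tumours (r = 0.525, n = 36), and its likest genes were Lig1, DNA ligase 1 (r = 0.658), Tcf19 (r = 0.653) and Hmgb1 (r = 0.650). With the cell cycle list as a covariate the averaged value was -0.48 (adjusted p = 0.896), and limma on the mean per code gave -1.17 (adjusted p = 0.0585). Leaving out codes CE428, CE433, CE454, CE468 or CE483, tumour 1 of CE483 or tumour 2 of CE429 raised the adjusted p to between 0.0509 and 0.0753, with values from -1.33 to -1.09.

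The drop in Foxa3 concerned a small share of the family. Per kilobase, Foxa3 made up 1.28% ± 0.69 of the 3 Foxa genes in Variant 1 sgSetd2 and 3.69% ± 0.70 in Variant 1 sgNeo, and 2.93% ± 1.28 in Variant 3 sgSetd2 and 6.82% ± 2.01 in Variant 3 sgNeo (SD, n = 3 codes each). Foxa2 held 60.1% to 64.9% of the family on average in the 4 groups. Foxa1 averaged 79.8 ± 2.41 in Variant 1 sgSetd2 and 74.0 ± 11 CPM in Variant 1 sgNeo, and 82.4 ± 15 in Variant 3 sgSetd2 and 67.1 ± 6.95 CPM in Variant 3 sgNeo. Its averaged log2 fold change was 0.20 (95% interval -0.03 to 0.44, adjusted p = 0.282). Foxa2 averaged 108.3 ± 9.94 in Variant 1 sgSetd2 and 88.5 ± 18.1 CPM in Variant 1 sgNeo, and 118.0 ± 12.8 in Variant 3 sgSetd2 and 108.9 ± 17 CPM in Variant 3 sgNeo. Its averaged log2 fold change was also 0.20 (95% interval -0.06 to 0.46, adjusted p = 0.342).

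Promoter windows are shown for Foxa1 and Foxa3 because Foxa3 passed the threshold and Foxa1 did not; the difference between these genes was not tested. They are RefSeq windows of 300 bases on GRCm38.p6, from 250 bases before the annotated start to 50 after it, printed in the direction of transcription. Capitals mark matches on either strand to 6 motifs: TGTTTAC for FOXA, the short forkhead core TGTTT, which lies inside the first, CAAGTG for NKX2-1, AGATAA for GATA, ACAAT for SOX and TTGCNNAA for C/EBP.
Foxa1, chr12:57546062-57546361, minus strand: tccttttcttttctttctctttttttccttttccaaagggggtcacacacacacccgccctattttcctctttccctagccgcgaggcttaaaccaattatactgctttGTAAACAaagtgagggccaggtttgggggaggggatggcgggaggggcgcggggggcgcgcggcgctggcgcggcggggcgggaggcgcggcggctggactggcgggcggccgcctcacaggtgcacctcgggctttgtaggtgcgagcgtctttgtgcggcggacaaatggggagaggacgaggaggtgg
Foxa3, chr7:19023490-19023789, minus strand: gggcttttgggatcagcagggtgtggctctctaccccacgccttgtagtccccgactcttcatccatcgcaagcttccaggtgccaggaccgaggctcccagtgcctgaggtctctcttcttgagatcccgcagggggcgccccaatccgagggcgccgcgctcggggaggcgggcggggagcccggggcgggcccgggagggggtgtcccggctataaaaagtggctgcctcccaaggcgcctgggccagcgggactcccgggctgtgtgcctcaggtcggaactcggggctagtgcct
The Foxa1 window held TGTTTAC on the reverse strand, a motif found in 3.65% of 32851 windows, and the Foxa3 window held none of the 6. Windows were available for 7 of the 9 members and numbered 10. Of these, 6 held TGTTT, which is in 50.5% of all windows, 2 held AGATAA (11.2% of all), 2 held ACAAT (31.0%), 1 held TTGCNNAA (10.8%) and 0 held CAAGTG (13.6%). A match describes letters and is not a bound site.

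Hnf4a, the hepatic and gastrointestinal nuclear receptor, lies on chromosome 2 (163506808 to 163572910, plus strand). It was an all-or-little gene: 12 of 18 sgSetd2 tumours and 7 of 18 sgNeo tumours had no read. In Variant 3 it stood at 0.0594, 0.217 and 0.0385 CPM in the sgSetd2 codes CE450, CE454 and CE456, against 1.61, 5.70 and 12.5 CPM in the sgNeo codes CE428, CE429 and CE433. In Variant 1 it stood at 0.262, 1.04 and 0 CPM in the sgSetd2 codes CE475, CE479 and CE483, against 0.584, 5.49 and 0.221 CPM in the sgNeo codes CE467, CE468 and CE472. The groups did not overlap in Variant 3 and overlapped in Variant 1, and the share of all genes without overlap was not counted. The averaged log2 fold change was -4.11 (SE 1.13, adjusted p = 0.0496), with -5.96 (SE 1.74, adjusted p = 0.127) in Variant 3 and -2.26 (SE 1.47, adjusted p = 0.508) in Variant 1.

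Few tumours carried the Hnf4a signal. None of 18 sgSetd2 tumours and 5 of 18 sgNeo tumours were above 4 CPM. Tumour 2 of CE433 had 37.3 CPM, tumour 4 of CE468 had 21.2 CPM and tumour 2 of CE429 had 8.48 CPM. In Variant 1 sgNeo the top tumour gave 68.1% of 771 reads, and in Variant 3 sgNeo it gave 47.5% of 3389 reads. The averaged call was lost in 29 of 48 fits that left out 1 code or tumour, with an adjusted p up to 0.143 (without tumour 2 of CE429), and values between -5.24 and -2.92. Without code CE468 the Variant 1 value was 0.13. Of 11 other settings 5 called the averaged contrast and 6 did not, with adjusted p from 0.00017 with DESeq2 to 0.594 with the cell cycle list as a covariate. With the sex of the code as a covariate the adjusted p was 0.088, and limma on the mean per code gave -2.20 (adjusted p = 0.147).

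The 2 tumours highest in Hnf4a were also the highest of the 36 in gastric and intestinal genes. The gastric and intestinal list had a mean of 1.56 on the log2(CPM + 1) scale in tumour 2 of CE433 and 1.44 in tumour 4 of CE468. The other 3 tumours above 4 CPM of Hnf4a had list means of 1.32 (tumour 2 of CE428), 0.76 (tumour 2 of CE429) and 0.75 (tumour 3 of CE433), while tumour 2 of CE467, with no Hnf4a read, had 0.90. Over tumours the deviations had r = 0.690 (Spearman 0.58, and r = 0.488 without the 2 tumours farthest in the list). Gkn2, a gastrokine of the stomach lining, was at 323.9 CPM in tumour 2 of CE433 and 252.8 CPM in tumour 4 of CE468. Of 9 tested genes of that list, 4 fell in sgSetd2 in the averaged contrast and 0 rose, with a median log2 fold change of -2.99 against 0.01 over all genes. In Variant 1 alone 2 fell, with a median of -3.06, and in Variant 3 alone 1 fell, with a median of -1.997. Over all genes tested, 7.35% were called in the averaged contrast, 1.42% in Variant 1 and 1.49% in Variant 3. The 4 of the averaged contrast were Pgc, pepsinogen C (-8.60, SE 0.99, adjusted p = 0.00104), Vil1, villin (-3.05, SE 0.54, adjusted p = 0.0074), Ctse, cathepsin E (-2.99, SE 0.56, adjusted p = 0.0102), and Gkn2 (-7.01, SE 1.70, adjusted p = 0.0312). Pgc averaged 0.163 ± 0.142 CPM in Variant 1 sgSetd2 and 22.0 ± 16.3 CPM in Variant 1 sgNeo, and 0.0108 ± 0.0082 CPM in Variant 3 sgSetd2 and 13.5 ± 10.3 CPM in Variant 3 sgNeo (SD, n = 3 codes each). Sox9 moved with the same list among tumours (r = 0.659, Spearman 0.671, and r = 0.674 without the 2 tumours farthest in the list). Liver genes went both ways in the averaged contrast: Fga, Fgg and Rbp4 rose and Alb and F2 fell, out of 15 tested. The 4 of smallest p were Fga and Fgg, fibrinogen chains (3.90 and 3.52, adjusted p = 0.000264 and 0.000671), Rbp4, a retinol carrier (1.66, adjusted p = 0.00273), and Alb, albumin (-1.68, adjusted p = 0.00365).

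The 2 Hnf4a promoter windows are shown because the gene has 2 starts used in different tissues, which these gene-level counts do not separate. The upstream start is known as P2 and the downstream one, 40.3 kb away, as P1, the start used in adult liver. Capitals mark the same motifs.
Hnf4a upstream, chr2:163506607-163506906, plus strand: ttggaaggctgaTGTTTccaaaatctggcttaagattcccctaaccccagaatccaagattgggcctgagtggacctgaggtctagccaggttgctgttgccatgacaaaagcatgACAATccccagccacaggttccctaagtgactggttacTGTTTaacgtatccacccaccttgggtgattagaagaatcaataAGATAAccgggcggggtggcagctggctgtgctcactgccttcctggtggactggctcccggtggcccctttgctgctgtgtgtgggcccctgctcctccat
Hnf4a downstream, chr2:163546905-163547204, plus strand: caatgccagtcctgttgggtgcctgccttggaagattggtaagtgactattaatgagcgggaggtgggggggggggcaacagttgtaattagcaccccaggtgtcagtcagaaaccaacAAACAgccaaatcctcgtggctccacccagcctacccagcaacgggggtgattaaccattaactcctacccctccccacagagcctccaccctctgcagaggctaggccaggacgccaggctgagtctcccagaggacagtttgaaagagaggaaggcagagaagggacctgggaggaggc
The upstream window held TGTTT at 2 places, AGATAA once and ACAAT once, and the downstream window held TGTTT once, on the reverse strand.

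**Figure D5:**
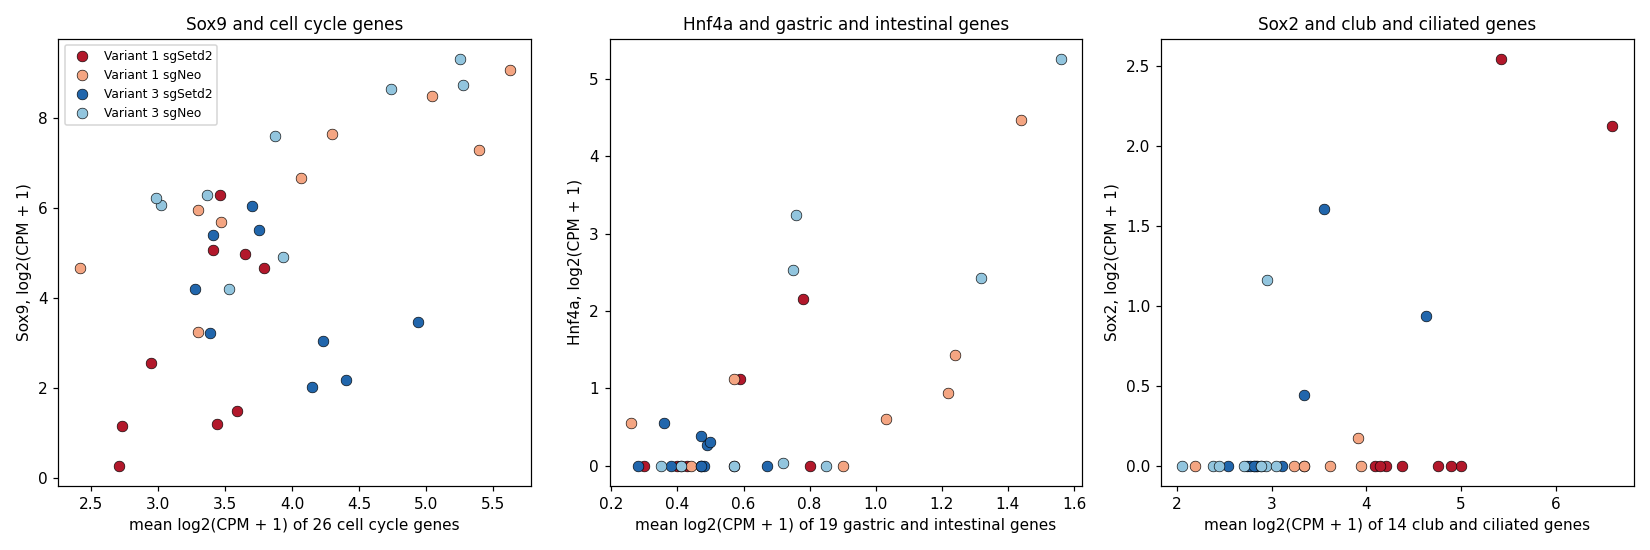
Sox9 against the mean of 26 cell cycle genes, Hnf4a against the mean of 19 gastric and intestinal genes, and Sox2 against the mean of 14 club and ciliated genes, in 36 tumours as log2(CPM + 1), coloured by group. The tumours highest in Hnf4a are sgNeo tumours with list means of 1.44 and 1.56, and those highest in Sox2 are Variant 1 sgSetd2 tumours with list means of 5.42 and 6.59.

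Nkx2-1, the lung identity factor (chromosome 12, 56531958 to 56536908, minus strand), was present at high level in each tumour. It averaged 379.0 ± 35.6 CPM in Variant 1 sgSetd2 and 329.4 ± 74.5 CPM in Variant 1 sgNeo, and 381.4 ± 46.7 CPM in Variant 3 sgSetd2 and 400.2 ± 32 CPM in Variant 3 sgNeo (SD, n = 3 codes each). The averaged log2 fold change was 0.07 (95% interval -0.19 to 0.32, adjusted p = 0.804). Its lowest tumour, tumour 1 of CE467, had 185.7 CPM. The same tumour had the lowest alveolar type 2 list (9.16, against up to 11.1 elsewhere on the log2(CPM + 1) scale), the highest fibroblast list (4.73) and 68.7 CPM of Cebpa, the lowest Cebpa level of the 36. Over the 36 tumours, deviations of Nkx2-1 and of the alveolar type 2 list from their group means had r = 0.223 (Spearman 0.099). That r was 0.081 without the 2 tumours farthest in the list. For the fibroblast list r was -0.528, and -0.21 without its 2 farthest tumours. The likest genes of Nkx2-1 were Zfp467 (r = 0.755), Kyat1 (r = 0.737) and Sfta2, a surfactant-associated gene (r = 0.727). Without the 2 farthest tumours these fell to 0.373, 0.462 and 0.480, so they rest in part on them. The opposite-strand gene Gm26973 overlaps Nkx2-1 and stood at 4.84 to 23.7 CPM.
The Nkx2-1 window is shown as that of the member with the lowest coefficient of variation over the 12 codes.
Nkx2-1, chr12:56536859-56537158, minus strand: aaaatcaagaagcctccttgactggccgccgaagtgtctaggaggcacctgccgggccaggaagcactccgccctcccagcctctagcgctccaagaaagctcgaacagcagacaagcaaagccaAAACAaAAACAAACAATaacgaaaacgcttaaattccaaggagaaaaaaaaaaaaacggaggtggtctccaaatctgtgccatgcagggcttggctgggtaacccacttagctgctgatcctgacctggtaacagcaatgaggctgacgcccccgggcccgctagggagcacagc
It held TGTTT at 3 places on the reverse strand, the last of them overlapping 1 ACAAT, and no CAAGTG, the motif of its own product.

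Cebpa, which encodes the leucine-zipper factor of alveolar type 2 maturation and of liver and myeloid cells, averaged 132 ± 13 CPM in Variant 1 sgSetd2 and 113 ± 25.9 CPM in Variant 1 sgNeo, and 124 ± 15.3 CPM in Variant 3 sgSetd2 and 134 ± 15.8 CPM in Variant 3 sgNeo (SD, n = 3 codes each). Its averaged log2 fold change was 0.06 (95% interval -0.22 to 0.33, adjusted p = 0.85). Its likest genes were Mocs1 (r = 0.801), Plin3 (r = 0.770) and Gsta4 (r = 0.752), and none of these 3 passed in the averaged contrast. Alveolar type 2 genes went both ways in the averaged contrast, where 7.35% of all genes tested were called. Of 20, 2 rose, Lyz2, lysozyme (1.62, SE 0.19, adjusted p = 0.0012), and Chil1 (1.11, SE 0.14, adjusted p = 0.00123), and 2 fell, Napsa, the aspartic protease napsin A (-1.29, SE 0.18, adjusted p = 0.0022), and Fabp5 (-1.29, SE 0.34, adjusted p = 0.0433).

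Sox2, the airway factor (chromosome 3, 34650405 to 34652461, plus strand), had no read in 29 of 36 tumours. It was called in 0 of the 6 contrasts, and with so few tumours no fold is given. In Variant 1 sgSetd2 it was seen in tumour 1 of CE479 at 3.35 CPM and in tumour 4 of CE479 at 4.82 CPM, while in Variant 1 sgNeo it was seen in tumour 3 of CE467 at 0.129 CPM, a total of 3 reads. In Variant 3 sgSetd2 it was seen in tumours 3 and 4 of CE454 at 0.908 and 2.03 CPM and in tumour 1 of CE450 at 0.360 CPM, and in Variant 3 sgNeo in tumour 2 of CE429 at 1.24 CPM. The 2 tumours of CE479 with Sox2 had the highest club and ciliated list of all 36, at 6.59 and 5.42 on the log2(CPM + 1) scale, and Foxj1, the master factor of ciliated cells, stood at 38.4 and 26.5 CPM there, against 5.40 CPM in tumour 2 of CE479, which had no Sox2 read. Elsewhere, tumours with Sox2 reads had list means of 4.63 and 3.55 (tumours 3 and 4 of CE454) and 3.34 (tumour 1 of CE450). They had 3.91 in tumour 3 of CE467 and 2.95 in tumour 2 of CE429. With no Sox2 read, tumour 2 of CE479 had 5 and tumour 3 of CE483 had 4.89. The part of airway cells in these Sox2 values was not tested. Of 14 club and ciliated genes, 5 rose in the averaged contrast and 0 fell. In Variant 1 alone 2 rose, with a median of 1.95 over the list, and in Variant 3 alone 1 rose, with a median of 0.59. Over all genes tested, 7.35% were called in the averaged contrast, 1.42% in Variant 1 and 1.49% in Variant 3. The 4 of smallest p were Cyp2f2, a cytochrome P450 of club cells (3.45, SE 0.32, adjusted p = 0.0004), Tubb4b (0.54, SE 0.10, adjusted p = 0.0102), Dynlrb2 (1.26, SE 0.32, adjusted p = 0.0382) and Scgb3a2, a secretoglobin (3.04, SE 0.80, adjusted p = 0.0414). Dynlrb2 had 2.03 in Variant 1 and 0.48 in Variant 3, and the difference between these effects was -1.55 (SE 0.64, adjusted p = 0.795). Sox2 lies within the long transcript Sox2ot on the same strand, which had 356 reads in all against 752 of Sox2.

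Relatives of the 9 genes by family were counted from a list of 33, of which 17 had enough reads to test. In the averaged contrast 3 fell and 1 rose, while 7.35% of all genes tested were called. The 3 that fell were Sox4, Sox5 and Sox6. Sox4 averaged 44.5 ± 15.4 CPM in Variant 1 sgSetd2 and 85.7 ± 15.9 CPM in Variant 1 sgNeo, and 49.4 ± 11.9 CPM in Variant 3 sgSetd2 and 78.4 ± 9.47 CPM in Variant 3 sgNeo (log2 fold change -0.81, SE 0.17, adjusted p = 0.0186). The log2 change was -3.43 for Sox5 (SE 0.64, adjusted p = 0.0104) and -3.13 for Sox6 (SE 0.67, adjusted p = 0.0176). Both were low: Sox6 averaged 0.716 ± 0.604 CPM in Variant 1 sgSetd2 and 4.70 ± 1.43 CPM in Variant 1 sgNeo, and 0.501 ± 0.158 CPM in Variant 3 sgSetd2 and 5.86 ± 2.61 CPM in Variant 3 sgNeo. The gene that rose was Nkx2-2, a relative of Nkx2-1 known from neural tube and pancreas. It had 109, 403 and 267 reads in the Variant 1 sgSetd2 codes CE475, CE479 and CE483 and 0 reads in the 3 Variant 1 sgNeo codes. Against a floor of 3 reads over the group, it was at least 315-fold higher in Variant 1 sgSetd2. In Variant 3 it had 6 reads in sgSetd2 and 0 in sgNeo, so the averaged call (adjusted p = 0.0198) rests on Variant 1, where its adjusted p was 0.0487.

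Of 40 other transcription factors of lung and endoderm, 31 were tested, 4 rose and 2 fell in the averaged contrast. Over all genes tested, 7.35% were called there. Irx2, an Iroquois homeobox gene, rose (log2 change 1.15, SE 0.13, adjusted p = 0.00104), with 49.7 ± 7.55 CPM in Variant 1 sgSetd2 and 24.8 ± 5.91 CPM in Variant 1 sgNeo, and 40.7 ± 1.61 CPM in Variant 3 sgSetd2 and 16.5 ± 2.54 CPM in Variant 3 sgNeo (SD, n = 3 codes each). Elf3, an epithelial ETS factor, rose by 0.73 (SE 0.09, adjusted p = 0.00131). Elf5, an ETS factor of distal lung epithelium, fell (-0.92, SE 0.15, adjusted p = 0.0048), and Etv4, an ETS factor downstream of FGF signalling at the lung tips, fell as well (-0.66, SE 0.12, adjusted p = 0.00866).

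Between Variant 3 and Variant 1, 0 of the 9 members passed in either guide. Over all genes, 0.13% passed in sgSetd2 and 0.005% in sgNeo. The difference of the guide effects between variants passed for 0 of 9 members and 0 of 20009 genes (0%), with 0 members and 1200 genes at an unadjusted p under 0.05. For Hnf4a that difference was -3.70 (95% interval -8.22 to 0.83, adjusted p = 0.841), for Foxa3 0.19 (-1.04 to 1.42, adjusted p = 0.995) and for Gata6 0.16 (-0.27 to 0.59, adjusted p = 0.96). These intervals are wide for Sox9 and Hnf4a, so a difference of several-fold between variants was not detectable here.

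Among the members themselves, the deviations from the group mean over 36 tumours had their highest Pearson r for Foxa2 and Hnf4a (r = 0.641) and for Foxa3 and Hnf4a (r = 0.538), followed by Foxa2 and Gata6 (r = 0.502), Sox9 and Gata6 (r = 0.459) and Foxa2 and Sox9 (r = 0.454). Leaving out the 2 tumours farthest from the median in the first-named gene of each pair gave r = 0.366 and 0.322 for the Hnf4a pairs. It gave 0.521 for Foxa2 and Gata6, 0.459 for Sox9 and Gata6 and 0.428 for Foxa2 and Sox9. Pairs with different first genes can lose different tumours, so these values do not rank the pairs. By Spearman's rho the highest pair was Foxa3 and Cebpa, at 0.533. Nkx2-1 and Sox9 had r = -0.154. All of these are descriptions of tumours that share codes, and carry no test.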

How the data were processed

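Neoplastic cells of 36 mouse lung tumours were sorted by EGFP, and SMART-Seq libraries of their PicoPure-isolated RNA were read in pairs on a NovaSeq, per the labels' protocols. The file the authors deposited gives raw counts of reads for each gene and tumour. STAR 2.5.3a, R 4.2 and DESeq2 1.38.3 are named in the submitters' processing notes; which tool did the counting, with which strand setting, build and annotation, is not given in the sources used here. Symbols, exon lengths and coordinates came from GENCODE M21 (GRCm38), matched by ID for 49326 of 49585 rows; the coordinates may not be those of the authors' build.

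Tumours of the same code were added up, and 1 edgeR 4.0.16 model (R 4.3.3) of the 12 sums used TMM, filterByExpr by group, robust glmQLFit, glmQLFTest and Benjamini-Hochberg at 0.05. Each SE was derived as |log2 fold change| over the root of F. The script was tested on simulated data. No library was identical to another, no column was without a sample, and the labels give no batch or date. Alternatives were other scalings (RLE, upper quartile), filters, DESeq2 1.42.0, limma 3.58.1 (voom and trend), edgeR on tumours, only the 2 groups compared, and leaving out each code or tumour; covariates (sex of the code, cell cycle list) and leaving out 4 tumours with Col1a1 above 10 CPM were chosen after seeing the data.

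The members and gene lists were chosen with earlier results of these data known. Named were the 9 members, up to 4 members of each list by smallest p among those that passed, and the 3 genes most correlated with each member of at least 1 CPM, among genes of at least 5 CPM. Cd68, Cd79b, Cxcr2, Ddx3y, the liver genes beyond the first 4, Sox2ot, Foxj1, Gm26973 and 1010001N08Rik were added after their values were seen. Promoter windows were RefSeq's on GRCm38.p6.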

Additional observations from a re-analysis of the deposited data

Results flagged for a closer look

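In 9 of 36 groups of a member in 9 tumours, 1 tumour stood apart from the rest by Dixon's test at the 95% level, which chance gives in about 1 of 20 groups of normally distributed values. For Hnf4a and Sox2, with 6 of the 9, most tumours were at or near 0, so that 1 tumour with reads is enough to stand apart. For Hnf4a these were tumour 2 of CE479 in Variant 1 sgSetd2 (3.45 CPM, next 1.17), tumour 4 of CE468 in Variant 1 sgNeo (21.2, next 1.69) and tumour 2 of CE433 in Variant 3 sgNeo (37.3, next 8.48). Tumour 2 of CE433 also stood apart for Foxa3 (30.8 CPM, next 12.1). For Sox9 it was tumour 4 of CE479 in Variant 1 sgSetd2 (77.0 CPM, next 32.4), and for Foxa2 tumour 3 of CE475 in Variant 1 sgSetd2, the low one (81.8 CPM, next 102.0). For Sox2 they were tumour 3 of CE467 in Variant 1 sgNeo (0.129 CPM, next 0), tumour 4 of CE454 in Variant 3 sgSetd2 (2.03, next 0.908) and tumour 2 of CE429 in Variant 3 sgNeo (1.24, next 0).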

How the results depend on the processing

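The 4 called members kept their direction in the averaged contrast in each alternative with an adjusted p (59 for Foxa3, Hnf4a and Gata6, and 58 for Sox9). The count of members called there, 4, became 1 with no filter on low counts, 1 with limma on the mean per code, 2 with sex of the code as a covariate and 0 with the cell cycle list as a covariate; it was 3 with limma voom and without the Col1a1 tumours (both lost Hnf4a) and 3 with DESeq2 (no adjusted p for Sox9); leaving out 1 code or tumour gave 0 to 4. Within Variant 1 the count, 0, became 1 with edgeR on the 36 tumours (Sox9) and 1 with DESeq2 (Foxa3), and 0 to 1 on leaving out (without CE479, Sox9). Within Variant 3 it became 1 with edgeR on the tumours (Sox9), 1 with DESeq2 (Hnf4a) and 1 with limma voom (Sox9). Between variants and for the interaction it stayed 0. Genes called over the whole table ran from 14 to 2908 in the averaged contrast (main 1471), from 0 to 1500 in Variant 1 (284), from 172 to 1361 in Variant 3 (299), from 0 to 392 between variants in sgNeo (1), from 1 to 485 in sgSetd2 (26) and from 0 to 114 for the interaction (0); the cause was not tested.

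Small values that were not called changed sign. With edgeR on the tumours Nkx2-1 averaged -0.003 and the Sox9 interaction -0.159; with sex as a covariate the Sox9 interaction was -0.683. With limma on the mean per code the Hnf4a interaction was 0.015. With the cell cycle list as a covariate Nkx2-1 was -0.065 in Variant 1 and -0.088 averaged, Foxa1 -0.041 and Foxa2 -0.008 in Variant 1, and the Foxa3 interaction -0.911. Without the Col1a1 tumours the Foxa3 interaction was -0.017. On leaving out 1 code or tumour the ranges that crossed 0 were -0.001 to 0.222 for Foxa2 and -0.169 to 0.003 for Nkx2-1 in Variant 3, -0.027 to 0.121 for Cebpa averaged, -4.517 to 0.125 for Hnf4a in Variant 1, and, for the interaction, -0.125 to 2.533 for Sox9, -0.135 to 0.623 for Foxa3 and -0.011 to 0.271 for Gata6. No paired analysis was possible because each code holds tumours of 1 group. Hnf4a and Sox2 had few or no reads in most tumours, and what part depth had in this was not tested; Sox9, Foxa3 and Gata6 had reads in each tumour.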
